A study of Mus musculus with 24 samples.

Results

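The transcripts described here are 37 long non-coding RNAs (lncRNAs) that start back to back with a protein-coding or other annotated gene, measured by 1 probe each among the 60804 transcript probes of an Arraystar mouse lncRNA array. They were taken from the study's supplementary lists of lncRNAs found in brain and in F9 cells, where the relationship to the neighbouring gene is given as bidirectional. Of 47 such probes, 7 for Gas5, 1 of the Snhg family and 2 listed as tissue-specific or in another excluded list were left out. Both lists were read only for the rows held here, 1553 for brain and 1404 for F9, and these are the brightest rows. The dimmest brain row lay at a log2 level of 3.88 on brain replicate 1, above 92.9% of all probes, and the dimmest F9 row at 4.93 on F9 replicate 1, above 94.1%. Levels in brain and F9 therefore chose the members and are given without a test, and the exclusion of tissue-specific transcripts favours broad ones. Of the 37, 21 stood in both lists, 9 in the brain list alone and 7 in the F9 list alone.

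The study profiled 5 organs (testis, brain, liver, heart and kidney) taken from male ICR mice aged 8 weeks and 3 cell lines, with 3 arrays for each of the 8 groups. F9 is a mouse embryonal carcinoma line that came from a teratocarcinoma, and GC-1 and GC-2 are mouse lines derived from spermatogonia and spermatocytes and immortalised with a viral large T antigen, which they carry as a transgene. The labels name no treatment, and each line is a single established line, so its arrays sample 1 source. A level below is the log2 of the background-subtracted signal minus the log2 of the 75th percentile of all probes on the same array, and a transcript was called detected in a group when all 3 arrays were flagged well above background. The level of a probe also depends on how well that probe binds, so levels of different probes, and medians over sets of probes, describe signal and do not rank amounts of RNA. Probes for known genes followed the labels: Nrap, a heart muscle gene, was detected on all arrays of heart and on none of any other group, Star, which marks the Leydig cells of the testis, was at 2.58 ± 0.34 in testis (SD, n = 3) and at -1.55 or less in every other group, and Zfp42, a gene of embryonal carcinoma cells, was at 4.65 ± 0.39 in F9. Stra8, a germ cell gene, was detected in testis and in F9 but was well above background on no array of GC-1 or GC-2. Gap43, a gene of nerve cells, was at 7.31 ± 0.07 in brain and at 5.16 ± 0.45 in F9.

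Many mammalian promoters fire in both directions. The polymerase that enters the gene is matched by one that leaves along the opposite strand, and the upstream RNA is usually short-lived unless it is spliced or otherwise protected. Promoters of this kind are often rich in CG dinucleotides and belong to housekeeping and regulatory genes, and a lncRNA made there shares its start region, though not necessarily its level, with the partner gene.

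All 37 lncRNAs lay head to head with their partner on the opposite strand, each with a different partner, on 16 chromosomes. The distance between both starts ran from 4 bp, for Gm4189 beside Ddit3, to 911 bp, for AK135904 beside Eif4e1b, with a median of 178 bp, and it was under 250 bp for 26 of 37. For Gm13716 beside Lrrc55 and Gm15723 beside Trhde the RefSeq start of the partner lies upstream of the start used in the study's annotation, so that on RefSeq the lncRNA would start inside the partner gene. The RNAs were 261 to 9889 nt long with a median of 727 nt, and 22 were spliced. RefSeq now lists 2310009A05Rik as the protein-coding gene Pigbos1, Rpph1 as the RNA subunit of ribonuclease P, and 9130206I24Rik as Foxd2os. It classes Gm12986 as a pseudogene and 1600029O15Rik as a transcribed pseudogene. By the role of the partner, 12 lncRNAs lay beside genes of transcription and chromatin, 7 beside genes of the secretory pathway and transport, 6 beside genes of translation and metabolism, 5 beside genes of signalling and the cell surface, 2 beside genes of genome maintenance and 5 beside others.

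A promoter window, from 250 bases before to 50 bases after the start, was found in RefSeq (GRCm38.p6) for 29 of the 37 partners, and 20 of these windows also hold the start of the lncRNA. The 3 windows below are printed because their lncRNAs recur in the results: Gm4189 has the shortest distance, XLOC_001256 was highest in testis and Fam120aos lowest in testis. Capitals mark the letters GGGCGG (an Sp1 box), CCGGAAG (bound by ETS factors) and CCAAT (bound by NF-Y) on either strand.
Ddit3, chr10:127290543-127290842, plus strand: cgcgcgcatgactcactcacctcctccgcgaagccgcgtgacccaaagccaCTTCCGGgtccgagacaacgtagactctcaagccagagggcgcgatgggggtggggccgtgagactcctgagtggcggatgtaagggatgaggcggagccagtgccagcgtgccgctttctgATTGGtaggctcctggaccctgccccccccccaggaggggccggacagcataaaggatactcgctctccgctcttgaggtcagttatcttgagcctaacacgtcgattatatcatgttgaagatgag
Ivns1abp, chr1:151344248-151344547, plus strand: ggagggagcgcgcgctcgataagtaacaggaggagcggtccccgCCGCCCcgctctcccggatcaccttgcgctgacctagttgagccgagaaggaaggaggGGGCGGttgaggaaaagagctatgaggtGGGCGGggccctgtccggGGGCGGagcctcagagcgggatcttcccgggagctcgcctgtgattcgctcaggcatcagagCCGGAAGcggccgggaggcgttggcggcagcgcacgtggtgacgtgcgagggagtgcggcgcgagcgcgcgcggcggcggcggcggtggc
Fam120a, chr13:48968011-48968310, minus strand: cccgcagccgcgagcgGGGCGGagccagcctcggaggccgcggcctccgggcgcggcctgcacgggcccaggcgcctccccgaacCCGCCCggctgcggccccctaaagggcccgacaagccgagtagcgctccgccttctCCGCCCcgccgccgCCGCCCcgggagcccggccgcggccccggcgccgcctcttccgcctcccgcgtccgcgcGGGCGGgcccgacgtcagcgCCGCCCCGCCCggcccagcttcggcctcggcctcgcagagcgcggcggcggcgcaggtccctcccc

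The Sp1 box was found in 18 of the 29 windows (62.1%, against 46.3% of 17492 windows of protein-coding genes). The ETS letters were found in 9 (31% against 11.9%), the NF-Y letters in 9 (31% against 39%), the TATA box TATAAA in 1 (3.45% against 13.3%), the NRF1 letters GCGCATGC in 2 (6.9% against 3.61%) and the YY1 letters AAGATGGCG in 0 of 29, against 1.94%. The median share of C and G was 63.7% in partner windows and 56.3% in all coding windows, and the median number of CG pairs in 300 bases was 25 against 13. These letters were counted on both strands, they describe the windows, and none of the differences was tested.

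The probes were divided into 2 sets by their sequence, since this bears on the levels below. Each probe is 60 bases long. Of the 37, 18 share runs of 16 bases, on either strand, with the RefSeq promoter windows of 3 or more genes, out of 27025 genes with a window. The run need not be the same in each gene. These are called probes with a recurring run here, and the other 19 share such runs with 0 to 2 genes. Only exact runs in promoter windows were searched, so a count of 0 to 2 does not show that a probe reads its own locus alone. AK134917 counts among the 18 with 5 genes, though no single run of its probe was found at 3 or more. This grouping was made after the levels had been seen. Just inside the limit of 3 genes were AK080111 and AK145175, each with 4 genes, and just outside were Gm4189 and AK013270, each with 2. In the probes below, capitals mark the bases that lie in runs found at 3 or more genes. The first 4 belong to members among the 6 brightest, XLOC_023801 to the member with the widest tissue difference, and the last 3 hold no such run.
Gm11464: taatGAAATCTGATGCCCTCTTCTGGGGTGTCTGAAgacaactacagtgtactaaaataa
AK085359: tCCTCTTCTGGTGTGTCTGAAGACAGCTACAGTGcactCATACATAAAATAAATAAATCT
9130206I24Rik: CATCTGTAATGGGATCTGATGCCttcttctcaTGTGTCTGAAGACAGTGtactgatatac
mouselincRNA0025: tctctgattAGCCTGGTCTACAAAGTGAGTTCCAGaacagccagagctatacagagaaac
XLOC_023801: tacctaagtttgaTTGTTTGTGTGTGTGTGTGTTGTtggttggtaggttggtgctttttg
AK013270: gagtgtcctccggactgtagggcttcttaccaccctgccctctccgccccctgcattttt
XLOC_001256: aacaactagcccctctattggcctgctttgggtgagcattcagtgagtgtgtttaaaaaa
Gm4189: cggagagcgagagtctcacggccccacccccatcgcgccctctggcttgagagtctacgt

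The capitals of Gm11464, AK085359 and 9130206I24Rik read like the end of the B2 family of short interspersed repeats, those of mouselincRNA0025 like the B1 family, and those of XLOC_023801 are a run of GT pairs. No repeat annotation was used, and the resemblance rests on the letters alone. The run counts were 45 genes for Gm11464, 97 for AK085359, 27 for 9130206I24Rik, 34 for mouselincRNA0025, 65 for XLOC_023801 and 159, the most, for AK132839. The study's annotation lists a match to other transcripts for the probes of 3 members, 4933431E20Rik, AK015627 and Rpph1. Of the lncRNAs of other classes in the same lists, with the same exclusions, a recurring run was present in 50% of 86 exonic antisense probes, 22.7% of 427 exonic sense, 17.8% of 960 intergenic, 16.2% of 191 intronic antisense and 5.21% of 96 intronic sense probes, against 48.6% of the bidirectional ones. How much of a signal comes from RNA of other loci with the same run was not tested. The probe of Gm4189 is a case of another kind, since 50 of its 60 bases lie, on the opposite strand, inside the Ddit3 window printed above.

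The bidirectional lncRNAs were detected almost everywhere. Of the 37, 34 were detected in all 6 groups that the choice of members did not read (heart, kidney, liver, testis, GC-1 and GC-2), which is 91.9%, against 23.1% of all transcript probes. The other classes of the same lists gave 91.1% (exonic sense) to 97.9% (intronic sense), so the same breadth was found in every class of these bright lists. The same 34 were well above background on all 24 arrays. The median level over the 6 groups was 5.21 for bidirectional lncRNAs, 5.22 for exonic antisense, 4.88 for exonic sense, 5.68 for intergenic, 6.02 for intronic antisense and 6.59 for intronic sense lncRNAs, and -3.1 for all probes. By group, the median over the 37 was lowest in testis, at 3.75, and lay between 4.94 in heart and 5.94 in F9 elsewhere.

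**Figure D1:**
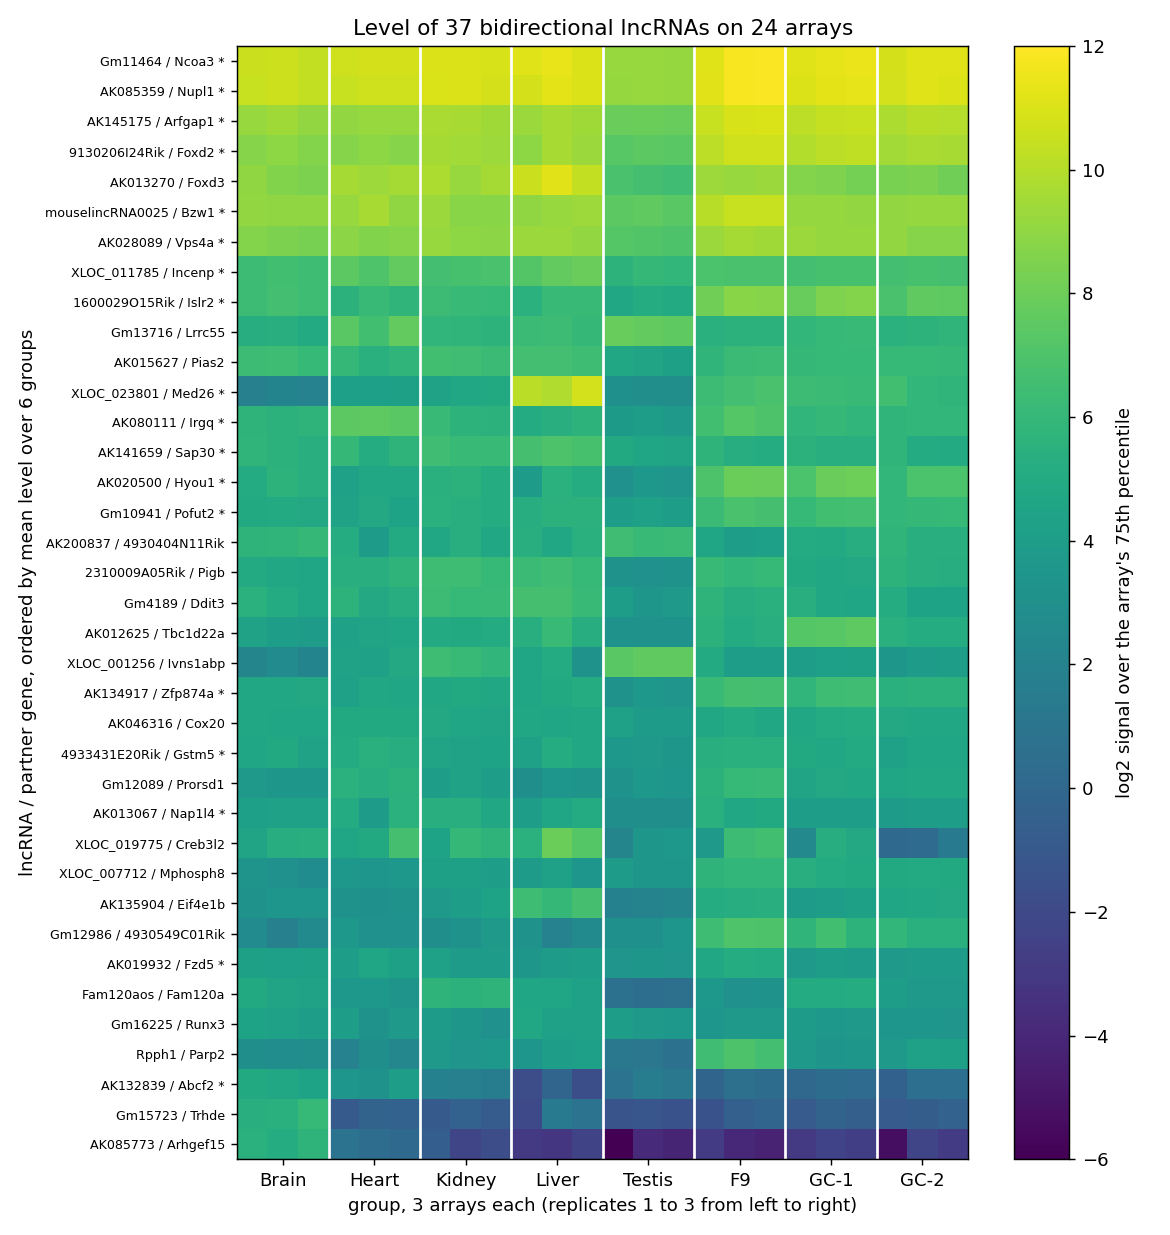
Level of each of the 37 lncRNAs (rows, with the partner gene; an asterisk marks a probe with a recurring run) on each of the 24 arrays (columns, 3 per group), as log2 signal over the 75th percentile of the array. The rows at the top are bright in every group. The last 3 rows have the lowest means over the 6 groups though not the lowest level in each, and the 3 testis columns are dimmer for most rows.

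AK085773, beside Arhgef15, was the least widely detected. It was detected in brain, heart and kidney, on 2 of 3 arrays of testis, on 1 of 3 of GC-1 and of GC-2, and on none of liver and F9. Its levels were 5.47, 5.13 and 5.74 in brain, 0.84, 0.42 and 0.14 in heart, and -0.62, -2.24 and -1.76 in kidney. The brain arrays lay far above all others, and the brain list is where this lncRNA was chosen from. Gm15723, beside Trhde, the ectoenzyme that degrades thyrotropin-releasing hormone, was at 5.35, 5.44 and 6.04 in brain, and its 7 other group means lay between -1.32 and 0.11. The liver values of -2.03, 1.49 and 0.86 were far apart, and the array at -2.03 was not well above background. That array, liver replicate 1, had the fewest probes well above background of all arrays, 18257. Its lowest such signal was 25.3 intensity units, against 11 to 16.6 on the other arrays. Without it, 35 members were detected in all 6 groups. AK132839, beside Abcf2, was at 4.71 ± 0.24 in brain, 3.60 ± 0.45 in heart and 1.76 ± 0.21 in kidney (SD, n = 3), and was well above background on 1 of 3 liver arrays. These 3 members share high brain levels, by which they entered, and low levels in most other groups.

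The 6 highest mean levels over heart, kidney, liver, testis, GC-1 and GC-2 were those of Gm11464 (10.75), AK085359 (10.68), AK145175 (9.41), 9130206I24Rik (9.12), AK013270 (8.87) and mouselincRNA0025 (8.87). They lie beside Ncoa3, a coactivator of nuclear receptors, Nupl1, a nucleoporin, Arfgap1, a GTPase activator at the Golgi, Foxd2 and Foxd3, which encode forkhead transcription factors, and Bzw1, a regulator of translation initiation. Apart from AK013270, all of them have probes with a recurring run. Gm11464 read 10.67, 10.84 and 10.81 in heart, 11.07, 11.08 and 10.93 in kidney, 11.1, 11.43 and 11.08 in liver and 9.23, 9.22 and 9.14 in testis. The testis arrays lay below every other array, and outside testis the values of this transcript stayed within 10.36 and 11.91 on all arrays. AK085359 had group means from 9.16 in testis to 11.63 in F9, AK145175 from 7.9 to 10.81 and mouselincRNA0025 from 7.5 to 10.35, each between the same groups. Over all members, the median level was 5.72 for the 18 with a recurring run and 4.28 for the 19 without, and the median tissue spread, the highest minus the lowest mean of heart, kidney, liver and testis, was 1.93 and 2.32. In exonic antisense lncRNAs of the same lists the corresponding levels were 5.83 and 4.26, in exonic sense 5.93 and 4.56, in intergenic 5.85 and 5.66, in intronic antisense 6.02 and 5.99, and in intronic sense 8.49, over 5 probes, and 6.55.

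AK013270, a short unspliced RNA 285 bp from Foxd3, was bright without a recurring run in its probe. Foxd3 is known for pluripotent cells and the neural crest, and yet the lncRNA was read in every tissue: 9.54, 9.35 and 9.6 in heart, 9.82, 9.23 and 9.55 in kidney, 10.57, 11.2 and 10.32 in liver, and 6.86, 6.72 and 6.51 in testis. The liver arrays were the highest and the testis arrays the lowest, with no overlap between either and the other tissues. Beside the other transcription factor genes, 9130206I24Rik (Foxd2) had group means from 7.39 in testis to 10.54 in F9. Gm4189, beside the stress-response gene Ddit3, ranged from 3.76 in testis to 6.53 in liver. Gm16225, beside Runx3, had one of the flattest profiles, from 3.43 in GC-2 to 4.44 in liver.

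Across the 37 the rank correlation (Spearman) of the distance to the partner was -0.275 with the tissue spread and -0.0756 with the mean level. Both are given as descriptions, since the points share the arrays. By partner role, the median tissue spread was 3.27 for others (5 lncRNAs), 2.29 for genome maintenance (2), 2.09 for transcription and chromatin (12), 1.99 for translation and metabolism (6), 1.96 for the secretory pathway (7) and 1.43 for signalling and the cell surface (5). The ranges of these sets overlap widely, for example 0.65 to 7.32 for transcription and chromatin and 0.87 to 5.1 for signalling and the cell surface.

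**Figure D2:**
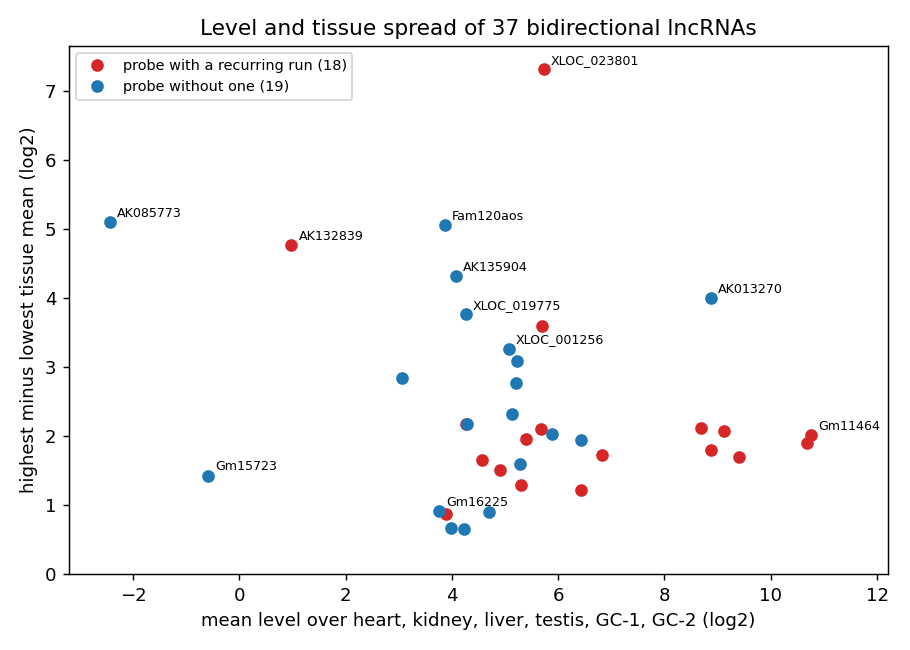
Mean level over heart, kidney, liver, testis, GC-1 and GC-2 (horizontal, log2) against the highest minus the lowest mean of heart, kidney, liver and testis (vertical, log2) for each of the 37 lncRNAs, red for probes with a recurring run and blue for those without. The brightest points lie near a spread of 2 with AK013270 as the exception at 4, and XLOC_023801 stands highest at 7.32.

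Tissue differences were tested with limma on the 15 tissue arrays, with p-values adjusted over all 60804 probes by the Benjamini-Hochberg method. A difference among heart, kidney, liver and testis was called (adjusted p of 0.05 or less) for 34 of 37 lncRNAs (91.9%), against 93.5% of all probes (29 against 86.9% under the other scaling, described below), so the share of members is close to that of the array as a whole. Only 23.1% of all probes were detected in all 6 groups, and the median level of all probes was -3.1. The shares of all probes, here and below, therefore rest mostly on dim probes, and those of detected probes alone were not counted for the tissues. The members that did not pass were XLOC_007712, Gm15723 and Gm12986, with adjusted p of 0.106, 0.201 and 0.202. Under the other scaling XLOC_007712 (adjusted p = 0.00142) and Gm12986 (adjusted p = 0.00137) passed, both called higher in testis than in heart, kidney and liver, and Gm15723 (adjusted p = 0.719) did not. The median tissue spread of the 37 was 2.03, against 2.06 to 2.36 in the other classes and 3.09 over all probes, while the median SD between replicates of the members was 0.27. The study's methods call the replicates biological and independent, while neither they nor the labels tie an array to an animal or a culture, so the p-values measure the spread between these arrays.

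The largest F statistic belonged to XLOC_023801, a spliced RNA of 9889 nt beside Med26, a subunit of the Mediator complex. Its level was 10.17, 9.84 and 10.78 in liver, 4.15, 4.16 and 4.21 in heart, 4.37, 4.71 and 4.9 in kidney and 3.06, 2.87 and 2.9 in testis. Every liver array lay above every other array of the series, and the brain arrays, at 1.82, 2.1 and 2, were the lowest. Liver exceeded testis by 7.32 on the log2 scale (SE 0.25, 160-fold, limma adjusted p = 3.38e-12; 64-fold under the other scaling), and within slide 2 the difference was 7.43 in size. The probe holds the run of GT pairs shown above.

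Fam120aos, beside Fam120a, which encodes an RNA-binding scaffold protein, had the second largest F and the clearest dip in testis. The testis arrays read 0.68, 0.53 and 0.62, those of kidney 5.7, 5.6 and 5.7, those of liver 4.68, 4.64 and 4.33 and those of heart 3.61, 3.61 and 3.32. None of these 4 tissues overlapped, and testis was lower than kidney by 33.3-fold (log2 difference -5.06, SE 0.22, limma adjusted p = 3.14e-11), or by 14.1-fold under the other scaling. AK135904, beside Eif4e1b, a cap-binding protein of the eIF4E family, was highest in liver, at 6.42, 6.01 and 6.7, and lowest in testis, at 1.92, 2.07 and 2.18. Testis was lower than liver by 20-fold (log2 -4.32, SE 0.24, limma adjusted p = 6.97e-10), or by 8-fold under the other scaling. 2310009A05Rik, beside Pigb, an enzyme of GPI anchor synthesis, was at 6.29 ± 0.18 in kidney and 6.26 ± 0.23 in liver against 5.43 ± 0.22 in heart and 3.19 ± 0.07 in testis (SD, n = 3). AK013270, described above, completed the 5 largest, with F of 79.6.

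**Figure D3:**
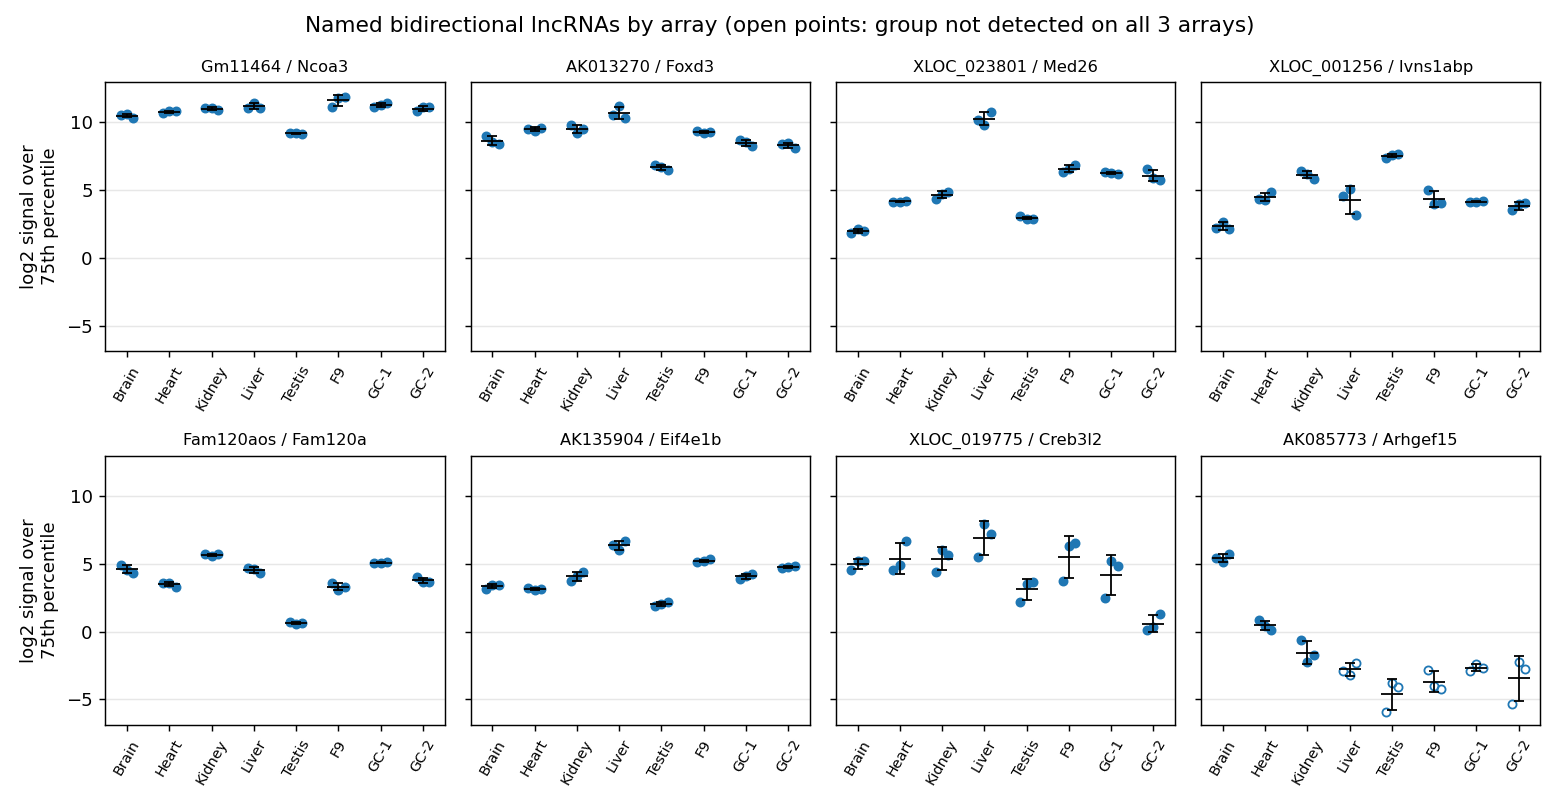
Level on each array (points, log2 signal over the 75th percentile of the array) of 8 named lncRNAs in the 8 groups, with the mean and SD of 3 arrays in black. Open points mark groups in which the lncRNA was not detected on all 3 arrays. XLOC_023801 peaks in liver at 10.26, XLOC_001256 in testis at 7.55 and Fam120aos dips to 0.61 in testis, and the arrays of XLOC_019775 are far apart within groups.

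Testis is the tissue the study asks about, and most bidirectional lncRNAs read lower there. Apart from replicate 1, the testis and heart arrays were on different slides. Against heart, 31 of 37 (83.8%) were called, 29 lower and 2 higher in testis, beside 82.6% of all probes called (63.6% lower, 19% higher). Against kidney, 32 were called, 29 lower and 3 higher, beside 80.7% of all probes (61.5% lower, 19.3% higher). Against liver, 33 were called, 29 lower and 4 higher, beside 84.5% of all probes (66.5% lower, 18% higher). The median differences of the members were -1.28, -1.7 and -1.59, and those of all probes -1.55, -1.47 and -1.96. With the study's 5-fold minimum, 1 member was higher and 5 lower than in heart, 0 and 6 than in kidney, and 2 and 8 than in liver, where 11.5% and 18.2%, 11.5% and 16.3%, and 10.3% and 44.7% of all probes were.

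These directions move with the scaling. The 75th percentile was 305 to 384 intensity units on the testis arrays and 30.7 to 154 on the arrays of the other groups, and 34999 to 37393 probes were well above background in testis against 18257 to 33692 elsewhere. Under the main scaling a probe detected in neither tissue can read lower in testis as well. Snap25, well above background on no array of testis or liver, read -6.85 in testis and -3.41 in liver. When the percentile was taken over probes well above background on all 24 arrays, the median difference of all probes was -0.52 against heart, -0.23 against kidney and -0.64 against liver. Then 19 members were called against heart, 12 lower and 7 higher in testis, 21 against kidney, 14 lower and 7 higher, and 25 against liver, 15 lower and 10 higher. The background under that scaling was 65% of all probes called against heart (37.7% lower, 27.3% higher), 51.6% against kidney (21.7% lower, 29.9% higher) and 75.4% against liver (45.8% lower, 29.6% higher). The share lower among called members thus went from 93.5% to 63.2%, from 90.6% to 66.7% and from 87.9% to 60%.

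Under both scalings, 5 lncRNAs were called lower in testis than in each of heart, kidney and liver: Fam120aos, AK013270, 2310009A05Rik, Gm11464 and AK028089, beside Vps4a, the ATPase that disassembles ESCRT complexes, at 7.11 in testis and 8.74 to 9.23 in those 3 tissues. Under both, 2 were called higher than in each: XLOC_001256, beside Ivns1abp, a kelch-domain protein, and AK200837, beside the uncharacterised gene 4930404N11Rik. The share of all probes that met either condition was not counted. Under the other scaling Gm11464 differed from heart, kidney and liver by -0.55, -0.59 and -0.68, and AK028089 by -0.61, -0.67 and -0.8. The medians of all probes there were -0.52, -0.23 and -0.64, and both members have probes with a recurring run. XLOC_001256 read 7.4, 7.6 and 7.64 in testis, 6.4, 6.17 and 5.85 in kidney, 4.35, 4.27 and 4.85 in heart, and 4.6, 5.07 and 3.15 in liver. The testis arrays were above every other array, and the liver arrays were spread over almost 2 log2 units. Testis exceeded liver by 3.27 (SE 0.39, limma adjusted p = 1.57e-06) and heart by 3.06 (SE 0.39, limma adjusted p = 5.85e-06), and under the other scaling by 4.59 and 4.08. AK200837 was at 6.29 in testis and at 4.69 (heart), 4.97 (kidney) and 5.14 (liver).

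Gm13716, beside Lrrc55, an auxiliary subunit of potassium channels, was the largest rise in testis against kidney. It read 7.84, 7.71 and 7.55 in testis and 5.86, 5.8 and 5.61 in kidney, a difference of 1.94 (SE 0.28, limma adjusted p = 1.71e-05), while the heart arrays, at 7.42, 6.52 and 7.68, overlapped those of testis. Under the other scaling the difference from kidney was 3.18, and Gm13716 was called higher in testis than in heart too (1.51, limma adjusted p = 8.58e-05). The largest fall against heart was that of AK085773, at -5.96, -3.82 and -4.11 in testis, a log2 difference of -5.1 (SE 0.51, limma adjusted p = 4.79e-07), which was -4.07 under the other scaling. The testis array at -5.96 was not well above background, so the size of this fall is loose, and within slide 1 alone it was -6.8. Gm16225 beside Runx3 was called lower in testis than in liver under the main scaling (-0.7, adjusted p = 0.0324) and higher under the other (0.62, adjusted p = 0.0447), so its direction is not settled.

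**Figure D4:**
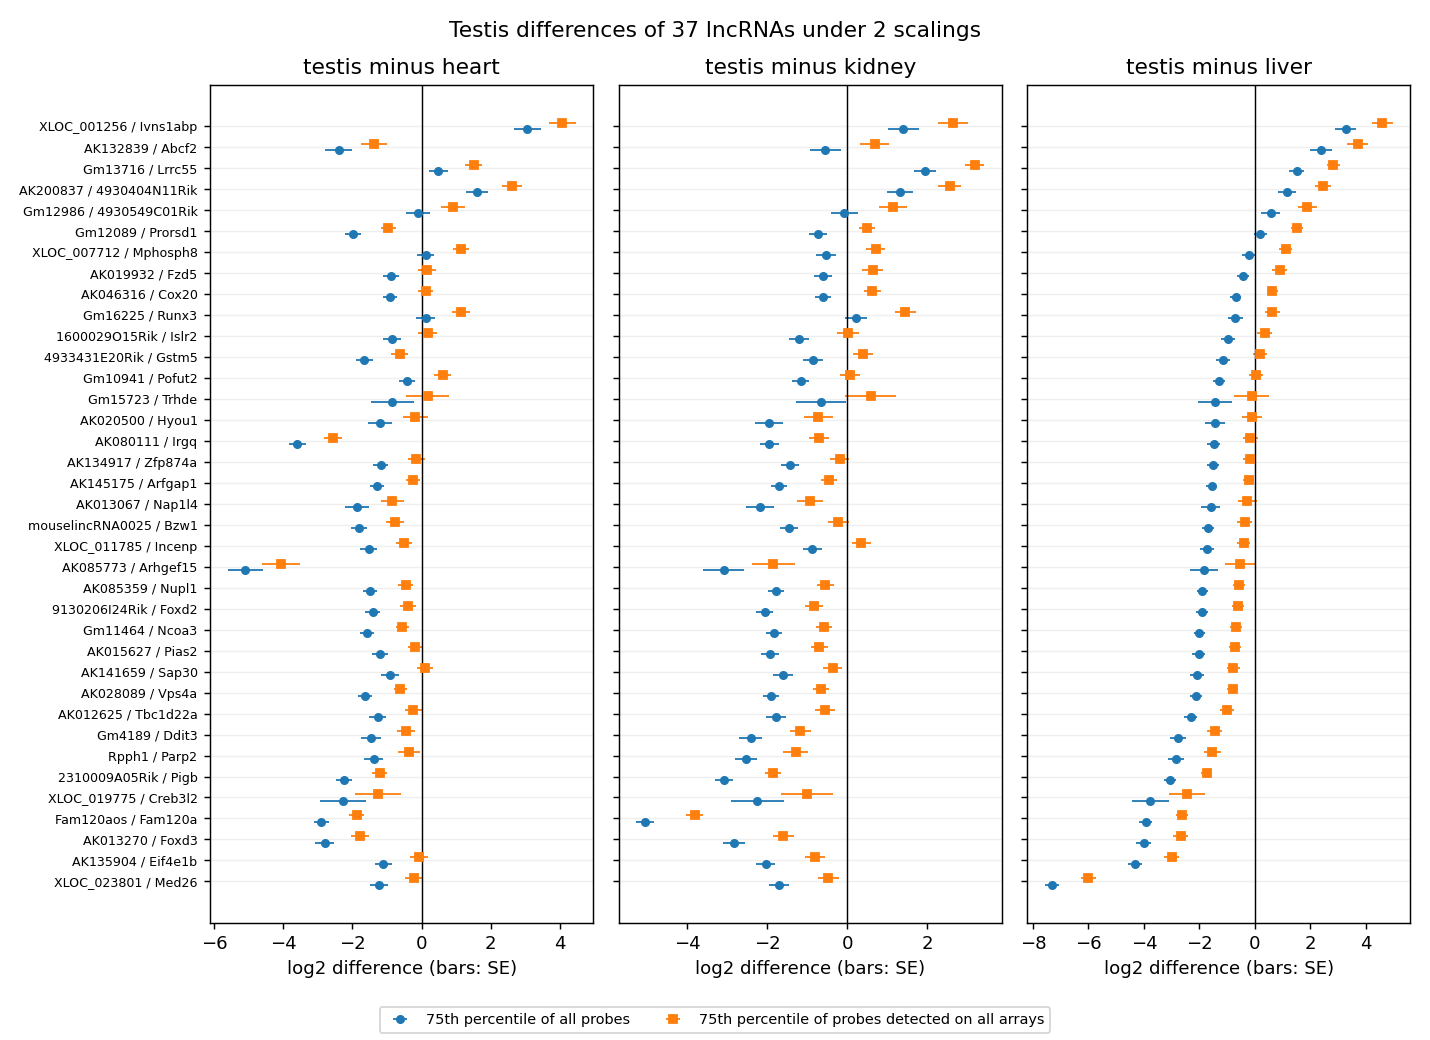
Log2 difference between testis and heart, kidney or liver for each of the 37 lncRNAs, with its SE, under the 75th percentile of all probes (blue circles) and of probes detected on all 24 arrays (orange squares). The orange points lie to the right of the blue ones throughout, XLOC_001256 stays above 0 in all panels, and Fam120aos, AK013270 and 2310009A05Rik stay below 0.

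Between GC-1 and GC-2 few members differed in the main fit, and the count moved from 2 to 10 in the alternatives given at the end. In a limma fit of the 12 arrays of testis, F9, GC-1 and GC-2, 4 of 37 (10.8%) were called, 3 higher and 1 lower in GC-1, against 11% of all probes (5.8% higher, 5.18% lower). With the 5-fold minimum 1 was higher and 0 lower in GC-1, where 2.08% and 1.23% of all probes were. Under the other scaling 3 were called, all higher, beside 10.7% of all probes (6.18% higher, 4.55% lower). AK012625, an unspliced RNA beside Tbc1d22a, which has a Rab GTPase activator domain, read 7.23, 7.29 and 7.55 in GC-1 and 5.41, 5.11 and 5.17 in GC-2, a difference of 2.13 (SE 0.21, adjusted p = 2.5e-05). The GC-1 arrays were above every other array of the series for this lncRNA. Fam120aos was at 5.1 ± 0.06 in GC-1 and 3.78 ± 0.22 in GC-2 (SD, n = 3), 2.49-fold higher in GC-1 (limma adjusted p = 0.00106). AK135904 was 1.62-fold lower in GC-1 (adjusted p = 0.035), a call lost under the other scaling (adjusted p = 0.0796) and with each of 8 single arrays left out.

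XLOC_019775, beside Creb3l2, a membrane-bound transcription factor of the endoplasmic reticulum, had the largest difference between GC-1 and GC-2. It read 2.49, 5.19 and 4.85 in GC-1 and 0.15, 0.32 and 1.32 in GC-2, 12-fold higher in GC-1 (log2 3.58, SE 0.82, limma adjusted p = 0.0131). The groups did not overlap, but replicate 1 of GC-1 stood apart, and replicate 1 of this lncRNA was the lowest of the 3 arrays in 8 of 8 groups, by a median of 1.39. All arrays of replicate 1 share a slide. Within that slide the difference was 2.34 and within slide 3 it was 4.2. Without replicate 2 of GC-1 it was 3.07 and without replicate 3 3.24, and in neither case was it called. AK134917, beside the zinc finger gene Zfp874a, also read lowest on replicate 1 in all 8 groups, by a median of 0.34, and Gm4189 read highest there in all 8, by a median of 0.58.

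Since arrays of GC-1 and GC-2 with the same number deviated together, the replicate number was also used as a block. Arrays of both lines with the same number also shared a slide, so pairing and slide cannot be told apart here. With it, 7 of 37 members were called between GC-1 and GC-2, beside 12.8% of all probes. These were the 4 above and 3 more, all higher in GC-1, namely AK020500 beside Hyou1, a chaperone of the endoplasmic reticulum (1.04, adjusted p = 0.00626), 1600029O15Rik beside the neuronal membrane protein gene Islr2 (0.99, adjusted p = 0.00373) and AK134917 (0.75, adjusted p = 0.0149), from limma with the Benjamini-Hochberg adjustment. Over the 8 groups, the means of these 3 ran from testis to F9, at 3.39 and 7.62 for AK020500, 4.97 and 8.54 for 1600029O15Rik and 3.39 and 6.49 for AK134917.

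Against testis, 35 of 37 were called in GC-1, 31 higher and 4 lower, beside 81.9% of all probes (62.4% higher, 19.5% lower), and 32 in GC-2, 27 higher and 5 lower, beside 81.3% (61.3% higher, 20% lower). Under the other scaling these fell to 21, 13 higher and 8 lower, and 20, 8 higher and 12 lower, beside 49.1% (15.9% higher, 33.1% lower) and 49.7% (14.9% higher, 34.8% lower) of all probes, so the prevailing direction for GC-2 turned. With the 5-fold minimum, 10 were higher and 1 lower in GC-1 and 7 higher and 2 lower in GC-2, where 17.4% and 11.9%, and 16.7% and 12.4%, of all probes were. The largest rise in GC-1 was that of Fam120aos, from 0.61 in testis to 5.1 (22.5-fold, limma adjusted p = 2.1e-09; 8.07-fold under the other scaling, where it was called too). In GC-2 AK020500, at 6.57 against 3.39 (9.02-fold, SE 0.38 on the log2 scale, limma adjusted p = 1.28e-05), and Fam120aos (9.01-fold, SE 0.2, limma adjusted p = 4.46e-08) had nearly the same rise, and under the other scaling both were 3.1-fold higher. XLOC_001256 was the largest fall in both, to 4.16 in GC-1 (10.5-fold lower than testis, limma adjusted p = 3.89e-07) and 3.83 in GC-2 (13.1-fold lower, limma adjusted p = 1.66e-07), and these falls were 29.2-fold and 38.1-fold under the other scaling. A whole testis holds many cell types, so a line and the tissue differ in composition as well, and fewer cells of a type and less RNA per cell cannot be told apart. Apart from replicate 1, the arrays of both lines were also on another slide than those of testis.

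Rpph1, the RNA subunit of ribonuclease P, 178 bp from Parp2, a gene of DNA repair, was read at 6.45, 6.94 and 6.61 in F9, which is where it was chosen, and at 1.18, 1.16 and 0.76 in testis, with GC-1 at 3.5 ± 0.18 and GC-2 at 4.06 ± 0.33 (SD, n = 3). Its means in kidney and liver, 3.56 and 3.88, lay above that of GC-1. Gm12986, beside 4930549C01Rik (Tex46 in RefSeq), was brighter in the 3 lines than in any tissue, with means of 6.8 in F9 and 2.36 in brain at the extremes. XLOC_007712, beside Mphosph8, a reader of methylated histone H3, ran from 3.06 in brain to 5.82 in F9.

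At 1 locus the lists also hold a transcript that overlaps the partner on its own strand. AK046316, a spliced lncRNA 603 bp from Cox20, an assembly factor of cytochrome c oxidase, was at 4.04 ± 0.2 in testis, 4.94 ± 0.02 in heart, 4.65 ± 0.17 in kidney and 4.73 ± 0.07 in liver (SD, n = 3). The other transcript, named for Cox20 and listed as exonic sense, was at 4.59 ± 0.05, 7.28 ± 0.25, 7.23 ± 0.1 and 6.2 ± 0.18 in the same tissues. The tissue means of AK046316 spanned 0.9 while those of the exonic sense transcript differed by more. The probe of AK046316 counts as one without a recurring run, but part of its letters resembles the probe of Gm11464. Whether its signal includes RNA of other loci was not tested. AK046316 was lowest in testis among these tissues under the main scaling, and under the other it was called higher in testis than in kidney (0.62, limma adjusted p = 0.0215) and liver (0.63, limma adjusted p = 0.0134), so its direction is not settled. Probes for the partners' messenger RNAs, that of Cox20 included, could not be named here.

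The remaining members are given by their lowest and highest group mean. AK080111 beside Irgq went from 3.86 in testis to 7.45 in heart. Gm12089 beside Prorsd1 went from 3.23 in liver to 5.94 in F9, Gm10941 beside Pofut2 from 4.15 in testis to 6.61 in F9, and 4933431E20Rik beside Gstm5 from 3.59 in testis to 5.4 in F9. AK015627 beside Pias2 went from 4.52 in testis to 6.56 in liver, AK141659 beside Sap30 from 4.7 to 6.8 and XLOC_011785 beside Incenp from 5.85 to 7.59, each between the same tissues. AK013067 beside Nap1l4 went from 2.97 in testis to 5.15 in kidney, and AK019932 beside Fzd5, a Wnt receptor, from 3.42 in testis to 5.01 in F9. Testis held the lowest group mean in 8 of these 9 lncRNAs, under the scaling that also lowers most other probes of the array there.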

How the data were processed

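Total RNA of 5 tissues and 3 cell lines was labelled with Cy3 and hybridised to 24 one-colour arrays (3 per group). The authors quantified the scans with Feature Extraction 11.5.1.1 and deposited intensities per spot, with flags coded 0 or 1, and a matrix of processed intensities that matched the scanner files (largest relative difference 0.000228). No normalization between arrays had been applied. Labels and methods name different RNA extraction reagents. The deposited fold columns of the study's comparisons were not used.

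Here the log2 of the processed signal of 60804 transcript probes was centred on the 75th percentile of each array. Comparisons used limma 3.58.1 (lmFit, eBayes, Benjamini-Hochberg) in R 4.3.3, on 15 tissue arrays or on 12 arrays of testis and the lines, with the study's 5-fold minimum as a second count. The fit was tested on simulated data. Python 3.11.15, pandas 2.3.3 and scipy 1.17.1 were used for the other steps. Names, classes, positions (GRCm38) and probe sequences came from the study's supplementary annotation, promoter windows from RefSeq. The members and lists were chosen with earlier results of these data known. Named members were the largest called difference in each direction of a comparison, the 5 largest and 2 smallest F, the 6 brightest, those beside Foxd3, Foxd2, Runx3 and Ddit3 and those with extreme distances.

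Alternatives were other scalings, quantile normalization, normexp (offset 50, on the median signal, since the mean signal planned for it was not in the files used), a filter on dim probes, slide and replicate blocks, single arrays left out and the methods' t-test. Slide 1 held replicate 1 of every group. Deviations of GC-1 and GC-2 arrays with the same number correlated at 0.291, 0.126 and 0.131 over all probes, so these numbers were taken to pair the arrays, and in no other comparison did all 3 pass 0.1. The labels pair no arrays, and a pairing cannot be told apart from the slides that both lines shared. No member signal was saturated, and the lowest level well above background ran from -4.87 to -0.98 by array. With 3 arrays a group, the number of arrays limits the precision.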

Additional observations from a re-analysis of the deposited data

How the results depend on the processing

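The count of members differing among 4 tissues (34) stayed between 29 and 36 in all alternatives over the 37, and between 33 and 35 with single arrays left out. Scaling on probes detected on all arrays gave 19, 21 and 25 members called for testis against heart, kidney and liver, and 21 and 20 for GC-1 and GC-2 against testis, and it brought the median tissue spread from 2.03 to 1.02. Quantile normalization and normexp each gave a spread of 1.42. For GC-1 against GC-2, 4 of the 37 members were called in the main fit, beside 11% of all probes. The brackets that follow give the share of all probes called, not that of members. Quantile normalization gave 8 (12.8%), normexp 10 (10.8%) and the slide as a block 9 (15.6%). The filter on dim probes gave 6 of 36 members, beside 20.2% of the 37017 probes it kept. The replicate block gave 7 (12.8%), slide 3 alone 8 (12.9%) and the methods' t-test 2 (5.08%). Single arrays left out gave 2 to 6, with 2 where replicate 2 or 3 of GC-1 was left out. In the other comparisons the replicate block left every count as it was except that of GC-2 against testis, 35 in place of 32. Over the 19 members without a recurring run, a division made, like the fit within slide 3, after seeing the data, the counts were 16 for the 4 tissues, 14, 15 and 16 for testis against heart, kidney and liver, 17 and 16 for GC-1 and GC-2 against testis, and 17 detected in all 6 groups, with a spread of 2.32. Fewer members make these counts smaller by construction. The count for GC-1 against GC-2 stayed at 4, with 0 of the other 18 called. Under the scaling on probes detected on all arrays, 8, 6 and 8 of the 18 were called for testis against heart, kidney and liver. Of the 19 it was 11, 15 and 17. For GC-1 against testis 12 of the 18 and 9 of the 19 were called there, and for GC-2 against testis 8 and 12. The NF-Y letters were found in 17.2% of partner windows in the 100 bases nearest the start, against 13.9% of all coding windows, so that partners lay above all windows there and below them over 300 bases. Of 264 recomputed differences of named members, 251 kept direction and call, 13 lost the call (those of XLOC_019775 and AK135904 between GC-1 and GC-2) and 0 turned. Where a count moved, the cause was not tested. Signal over background limits AK085773, AK132839 and Gm15723.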
